A study of Mus musculus with 12 samples.

Results

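The 9 genes described here, Ugt8a, Fa2h, Opalin, Cnp, Mag, Mog, Mbp, Mobp and Mal, encode enzymes and proteins of myelin and of the mature oligodendrocytes that make it. They were taken by name, with earlier results of these arrays known, and each was represented by the probe set annotated to that 1 gene symbol. Among several probe sets of a gene, the brightest over the 12 arrays would have been chosen by its mean, but each of the 9 had exactly 1 and shared none with another gene. They are 9 of the 22180 genes that had a probe set of their own. Hippocampal RNA of Tg2576 mice was hybridised to Affymetrix Mouse Gene 2.0 ST arrays, 3 arrays in each of 4 groups, and the labels call the arrays of a group biological replicas. All 4 groups, vehicle included, carried the same transgene by their labels, so no array shows these genes without it. The strain label is B6.Cg-Tg(APPswe)E1-2Dbo/J. The published methods describe Tg2576 mice on a C57BL/6/SJL background, with Swedish-mutant human amyloid precursor protein driven by a hamster prion promoter. The label and this description differ, and which applies to the arrays was not settled here. The mice were 16 to 18 months old and were treated for 4 weeks, and all were female by the published methods. During the treatment they performed fear conditioning and the Morris water maze, and the hippocampus was taken 24 h after it ended. The groups received vehicle (saline in the labels, saline with DMSO and Tween-20 in the methods), CM-695, CM-414, or SAHA and tadalafil. CM-695 inhibits histone deacetylase 6 (HDAC6) and phosphodiesterase 9, with a weaker effect on class I histone deacetylases. CM-414 inhibits histone deacetylases and phosphodiesterase 5. SAHA (vorinostat) is a histone deacetylase inhibitor, and tadalafil inhibits phosphodiesterase 5. The doses of CM-414 and of SAHA and tadalafil are not given in the sources used here, so the treatments are set side by side at doses that may differ.

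Oligodendrocytes wrap axons in layers of membrane that are unusually rich in galactolipids, and compact these layers with a small set of abundant proteins. Ugt8a adds galactose to ceramide to make galactosylceramide, the main galactolipid of myelin, and Fa2h hydroxylates the fatty acids of these lipids. In oligodendrocytes, the transcription factors Sox10, Olig1, Olig2 and Myrf drive myelin genes, and class I histone deacetylases are known to be required for precursors to differentiate.

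All values are log2 intensities after RMA, a method that corrects the background, normalises the arrays and summarises the probes of a set, so a difference of 1 is a change by a factor of 2. A probe set entered a comparison if every array of both groups lay over a log2 of 4, and all 9 genes passed in every comparison. Differences were tested with limma over every probe set that passed, and "called" stands for an unadjusted limma p under 0.01, which is the published threshold. No member passed an adjusted p under 0.05 in any of the 6 comparisons. Over all probe sets, 1 did, with SAHA and tadalafil against vehicle, and the smallest adjusted p of the other comparisons lay between 0.140 and 0.871. The genes were proposed with earlier results of these arrays known, so their p-values describe the size of a difference against the spread between arrays and are not independent evidence. Any pair of arrays correlated at 0.978 to 0.991. On the leading principal component (22.7% of the variance), 3 arrays had high scores: replicate 2 of vehicle (40.3), replicate 3 of CM-695 (35.6), and replicate 1 of SAHA and tadalafil (24.1). The other 9 lay between -30.3 (SAHA and tadalafil replicate 2) and 5.5, with vehicle replicate 3 at -25.7. In each of these groups the high-scoring array also had the lowest mean of the 9 genes. Leaving the 3 out therefore raises that mean in each group except CM-414 by construction, and values without them are given as a description and support nothing.

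Promoter sequences are shown for 4 genes, chosen by their values or their motif matches. Whether the values follow the sequence near each start site was not tested, and genes chosen in this way cannot show it. Of the 9 genes, 7 had an entry in the RefSeq promoter table (build GRCm38.p6), and Fa2h and Mbp had none. Each line gives the 250 bases before the annotated start, 5′ to 3′ on the strand of the gene, in lower case with matches to a motif in capitals. The motifs searched, on both strands, were ACAAAG, a core site of SOX factors such as Sox10; CTGGCAC, the core site of Myrf; CAGCTG, an E-box of basic helix-loop-helix factors; GGGCGG, the GC box of SP and KLF factors; and TATAAA, the TATA box. Ugt8a and Opalin were lower with CM-414, Mobp was not, and Cnp holds matches to both lineage motifs.
Ugt8a, chr3:125938653-125938902, minus strand: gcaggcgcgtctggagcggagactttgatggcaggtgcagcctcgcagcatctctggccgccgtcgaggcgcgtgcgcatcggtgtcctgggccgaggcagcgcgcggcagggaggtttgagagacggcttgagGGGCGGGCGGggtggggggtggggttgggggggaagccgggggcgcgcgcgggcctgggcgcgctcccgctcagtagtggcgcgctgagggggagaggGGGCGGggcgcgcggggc
Opalin, chr19:41077114-41077363, minus strand: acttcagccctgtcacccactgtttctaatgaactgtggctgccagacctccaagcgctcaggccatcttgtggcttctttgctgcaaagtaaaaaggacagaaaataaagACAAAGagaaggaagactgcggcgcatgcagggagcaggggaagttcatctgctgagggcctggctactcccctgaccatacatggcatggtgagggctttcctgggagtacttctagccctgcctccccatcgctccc
Mobp, chr9:120149492-120149741, plus strand: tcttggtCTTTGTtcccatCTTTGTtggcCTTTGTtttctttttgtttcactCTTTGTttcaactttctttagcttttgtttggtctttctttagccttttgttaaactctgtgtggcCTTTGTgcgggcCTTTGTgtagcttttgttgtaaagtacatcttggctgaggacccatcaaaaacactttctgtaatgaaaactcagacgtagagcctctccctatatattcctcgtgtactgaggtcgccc
Cnp, chr11:100574689-100574938, plus strand: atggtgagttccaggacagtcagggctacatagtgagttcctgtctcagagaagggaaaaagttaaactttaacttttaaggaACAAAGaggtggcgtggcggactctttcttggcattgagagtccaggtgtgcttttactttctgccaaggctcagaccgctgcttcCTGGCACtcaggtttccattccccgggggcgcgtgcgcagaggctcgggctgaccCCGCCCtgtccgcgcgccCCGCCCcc

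The Ugt8a window is rich in G and C (76.8%) and holds 3 matches to GGGCGG, the first pair of which overlap each other, and none to the other motifs. The Mobp window has the lowest G and C content of those shown (40.8%) and holds 6 matches to the SOX core, all read as CTTTGT on the strand printed. Opalin has 1 match to ACAAAG at 54.4% G and C. Cnp has 1 to ACAAAG, 1 to CTGGCAC and 2 to the GC box, at 57.2%. Of the genes not printed, Mag, with 3 annotated starts, has a SOX and a MYRF match before each of the first pair of starts. They lie 126 and 68 bases before the first start and 67 and 9 bases before the next. The spacing is the same, so these may be the same strings seen in overlapping windows. Mal and Mog have no match to the 5 motifs. Among all 32851 windows of the table, 16.5% hold the SOX core, 4.19% the MYRF core, 13.0% the E-box, 32.7% the GC box and 12.4% the TATA box. A match is a string of letters and not a measured binding site.

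The galactolipid enzymes were the genes with the clearest pattern, lower with CM-414 than in every other group. Ugt8a lay at 10.01, 9.64 and 9.96 on the vehicle arrays and at 9.06, 9.11 and 9.28 on the CM-414 arrays. It lay at 9.93, 10.14 and 9.47 with CM-695 and at 9.45, 9.74 and 9.65 with SAHA and tadalafil. All 3 CM-414 arrays were below the other 9. How often 1 group lies apart from the other 9 arrays among all probe sets was not counted, here or for the genes below. In order of the group means (± SD over 3 arrays), vehicle (9.87 ± 0.20) and CM-695 (9.85 ± 0.34) did not differ beyond their spread, SAHA and tadalafil followed (9.61 ± 0.15), and CM-414 was last (9.15 ± 0.11). The difference between CM-414 and vehicle was -0.72 (standard error 0.16, 95% interval -1.08 to -0.35), or 60.9% of the vehicle level, with an unadjusted p of 0.00113 and an adjusted p of 0.360 in limma. It was called under all 14 alternatives, between -0.83 and -0.65. Without the 3 high-scoring arrays, none of them from CM-414, it was -0.83. In bulk tissue, fewer oligodendrocytes and less RNA per oligodendrocyte cannot be told apart, here and in all that follows.

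Fa2h had the same order at the low end. It lay at 9.30, 8.93 and 9.46 on the vehicle arrays and at 8.60, 8.54 and 8.80 with CM-414, and on the CM-695 arrays at 9.44, 9.49 and 9.05. With SAHA and tadalafil the arrays were close together, at 9.11, 9.16 and 9.02. Again the CM-414 arrays were the lowest 3 of the 12. Group means were 9.33 ± 0.24 (CM-695), 9.23 ± 0.27 (vehicle), 9.10 ± 0.07 (SAHA and tadalafil) and 8.65 ± 0.14 (CM-414), and the first 3 did not differ beyond their spread. CM-414 differed from vehicle by -0.59 (standard error 0.15, 95% interval -0.91 to -0.26), 66.7% of the vehicle level, with an unadjusted p of 0.00237 and an adjusted p of 0.384 in limma. This call depended on single arrays, with an unadjusted p of 0.0111 (difference -0.53) without CM-414 replicate 2 and of 0.0124 (-0.47) without vehicle replicate 3. The Fa2h difference was -0.73 without the 3 high-scoring arrays.

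Opalin, a transmembrane glycoprotein found in mature oligodendrocytes, was also lower with CM-414 and was the most variable member. Its vehicle arrays lay at 7.59, 7.26 and 7.93 and its CM-414 arrays at 6.58, 7.19 and 6.54. The CM-695 arrays (7.30, 7.69 and 6.91) spanned the gap, and those of SAHA and tadalafil (7.46, 8.16 and 7.77) had the highest mean. CM-414 replicate 2 lay just below the lowest vehicle array and above CM-695 replicate 3. Group means fell from 7.80 ± 0.35 (SAHA and tadalafil) through 7.59 ± 0.33 (vehicle) and 7.30 ± 0.39 (CM-695) to 6.77 ± 0.36 (CM-414), and no neighbours in this order were called different. Against vehicle, CM-414 gave -0.82 (standard error 0.26, 95% interval -1.39 to -0.26, unadjusted p = 0.00829 and adjusted p = 0.404 from limma). The Opalin call was lost without CM-414 replicate 1 (-0.73), CM-414 replicate 3 (-0.71), vehicle replicate 1 (-0.83) or vehicle replicate 3 (-0.65), with unadjusted p from 0.0207 to 0.0391. Without the 3 high-scoring arrays the difference was -0.99.

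**Figure D1:**
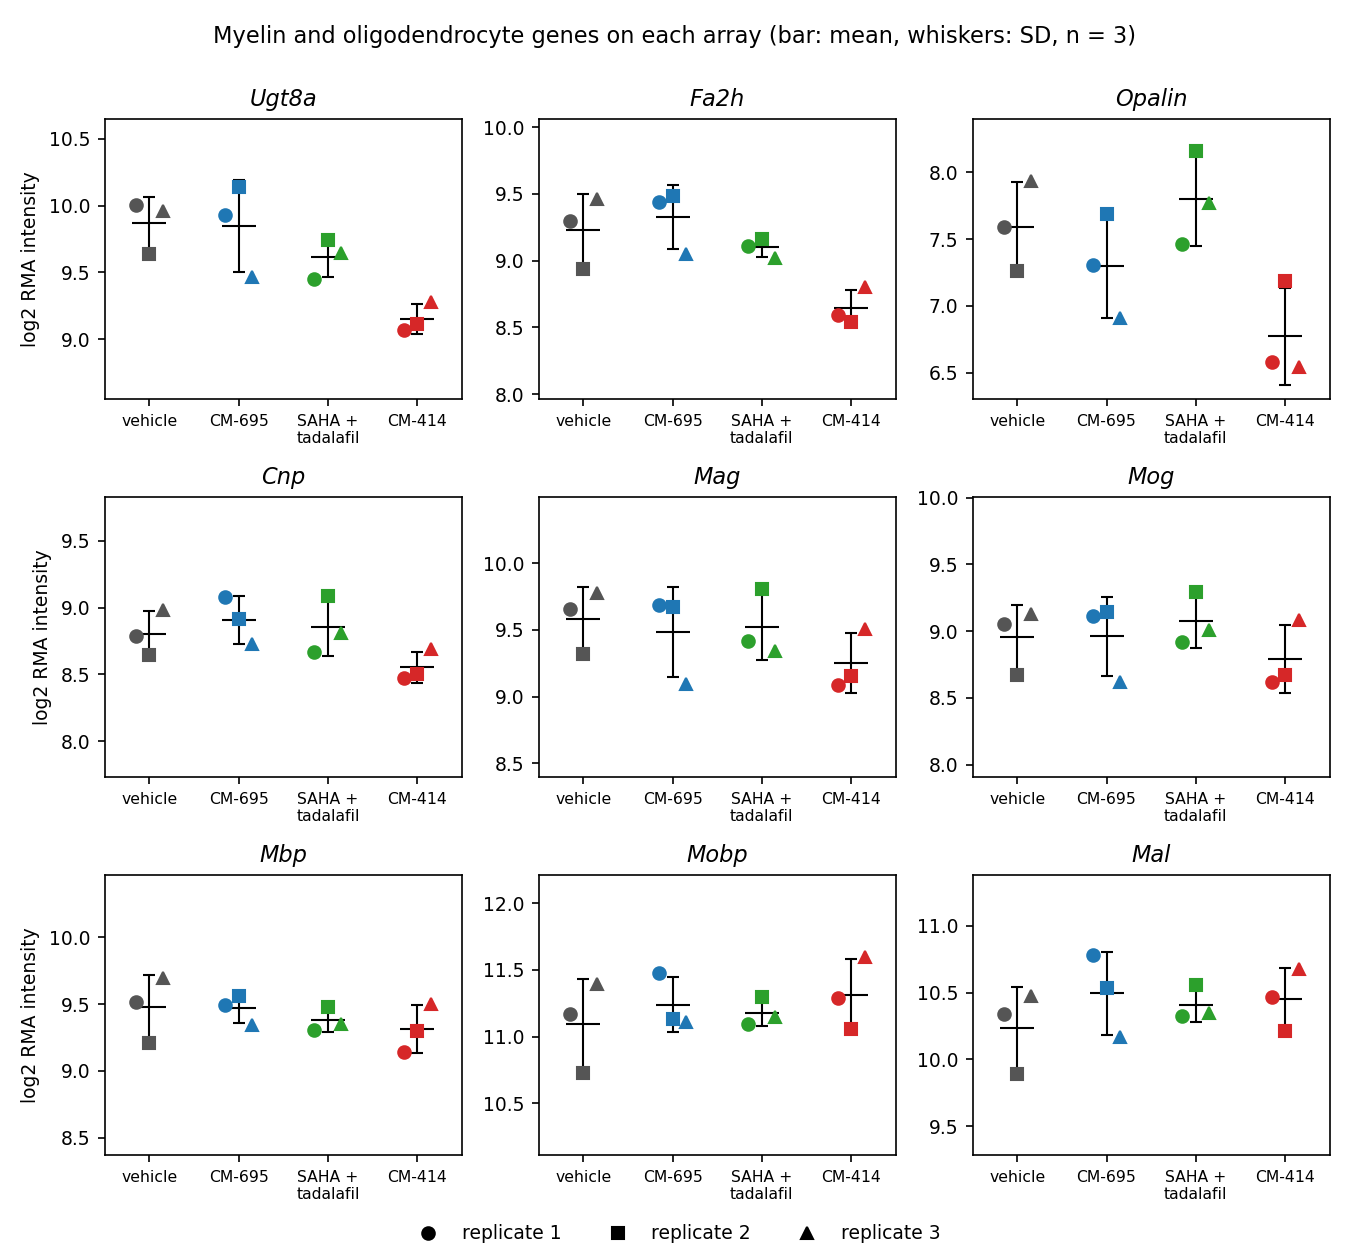
Log2 RMA intensity of each of the 9 genes (y axis) on each array, by group (x axis); bars are group means, whiskers the SD over 3 arrays, and marker shapes the replicate numbers, which do not pair arrays across groups. For Ugt8a and Fa2h the 3 CM-414 arrays (9.06 to 9.28 and 8.54 to 8.80) lie below all others, while for Mobp and Mal the groups overlap.

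Cnp, an enzyme of the cytoplasmic channels of non-compact myelin, was lower in the mean with CM-414, but this difference was not called. It lay at 8.47, 8.50 and 8.69 with CM-414 and at 8.79, 8.64 and 8.98 with vehicle, so the highest CM-414 array exceeded the lowest vehicle array. The difference was -0.25 (95% interval -0.55 to 0.05, unadjusted p = 0.0921 and adjusted p = 0.601 from limma).
The CM-695 arrays (9.08, 8.92 and 8.73) all lay above those of CM-414, by 0.35 in the mean (95% interval 0.06 to 0.65, unadjusted p = 0.0240), which was not called. It was called with array weights (0.39, unadjusted p = 0.00542), and without the 3 high-scoring arrays, among them the lowest CM-695 array, it was 0.44.

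The immunoglobulin-like surface proteins gave smaller values. Mag, which holds the innermost wrap to the axon, ranged from 9.32 to 9.78 on the vehicle arrays and from 9.09 to 9.51 with CM-414, a difference of -0.33 (95% interval -0.76 to 0.10, adjusted p = 0.629 from limma). Mog, on the outer surface of the sheath, ranged from 8.67 to 9.13 and from 8.62 to 9.08, a difference of -0.16 (95% interval -0.57 to 0.24, adjusted p = 0.825). The groups overlapped for both, and across all 12 arrays Mag and Mog moved closely together (r = 0.94).

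Of the proteins of compact myelin, none was called with CM-414 against vehicle, and the direction of the means was mixed. Mbp, which joins the cytoplasmic faces of the membrane, ranged from 9.14 to 9.50 with CM-414 and from 9.21 to 9.70 with vehicle (difference -0.16, 95% interval -0.45 to 0.13, adjusted p = 0.739 from limma). Mobp, a cytoplasmic protein of compact myelin, lay at 11.29, 11.06 and 11.60 with CM-414 and at 11.17, 10.73 and 11.39 with vehicle. Its difference was 0.22 (95% interval -0.18 to 0.61, adjusted p = 0.746). Mal, a proteolipid of membrane rafts involved in trafficking to myelin, lay at 10.47, 10.21 and 10.68 with CM-414 and at 10.34, 9.89 and 10.47 with vehicle. The difference for Mal was 0.22 (95% interval -0.19 to 0.63, adjusted p = 0.750). On vehicle replicate 2 both genes were at their lowest of the 12 arrays, and without the 3 high-scoring arrays, this one among them, the difference was 0.03 for Mobp and 0.05 for Mal.

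With CM-414 against vehicle, then, 3 of the 9 genes (Ugt8a, Fa2h and Opalin) were called, all lower, where 0.921% of the 35303 probe sets tested were called lower and 2.45% in either direction. These 3 were also the members whose groups did not overlap, with the CM-414 arrays lower, as 7.38% of all probe sets did. The median difference of the 9 genes was -0.25 (-0.16 without vehicle replicate 3) and that of all probe sets 0.00. The count was 1, Ugt8a alone, without vehicle replicate 3. In an F-test over the 4 groups, Ugt8a (unadjusted p = 0.00362) and Fa2h (unadjusted p = 0.00373) were under an unadjusted 0.01 in limma, as were 1.62% of the 34785 probe sets tested, and Opalin was just above it (unadjusted p = 0.0106). Their adjusted p lay at 0.576, 0.576 and 0.608. Differences between groups made up 72.7% of the variance of Fa2h, 72.1% of that of Ugt8a, 63.3% of that of Opalin and 47.9% of that of Cnp, against 13.7% to 25.0% for the other 5. Part of such a share arises without any difference between treatments, and that part was not subtracted. In the F-test Cnp had an unadjusted p of 0.0971, and the other 5 had unadjusted p from 0.386 to 0.677.

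**Figure D2:**
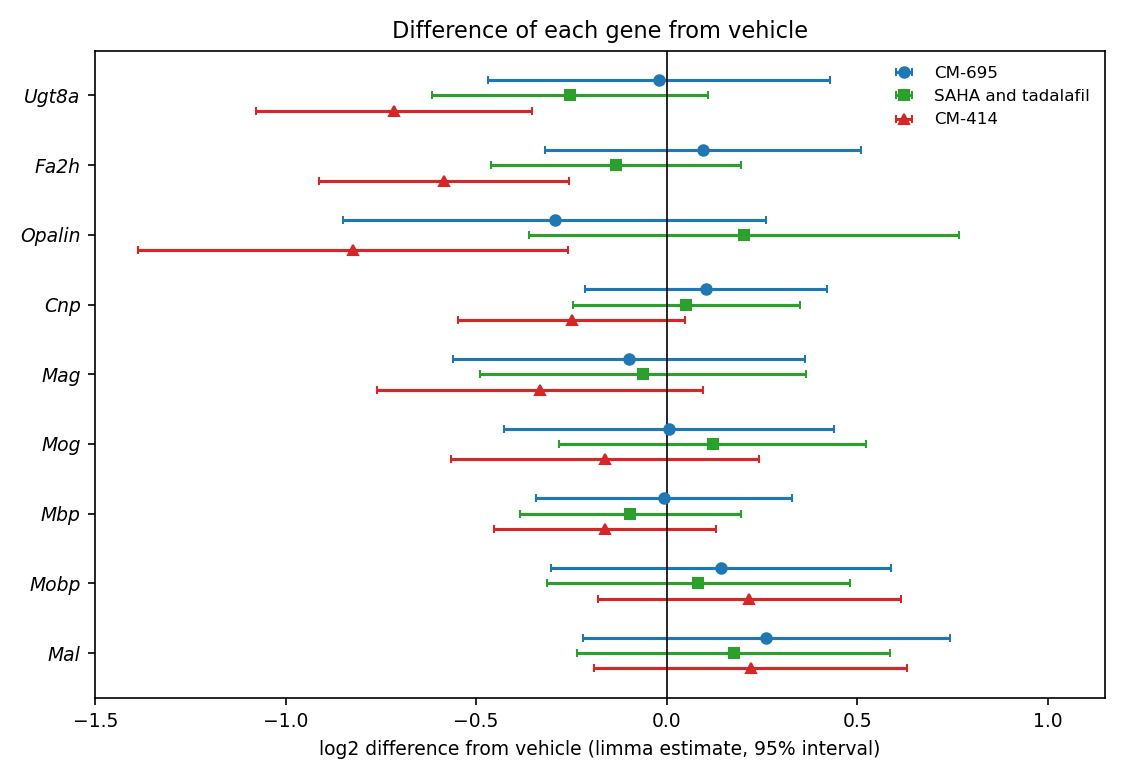
Log2 difference from vehicle (x axis) of each gene (y axis) with each treatment, with limma's 95% intervals from the fits used in the text. With CM-414 the intervals of Ugt8a (-1.08 to -0.35), Fa2h (-0.91 to -0.26) and Opalin (-1.39 to -0.26) leave out 0; with CM-695 and with SAHA and tadalafil every interval holds 0.

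The other treatments did not move any of the 9 genes past the threshold. With CM-695 against vehicle 0 of 9 were called (1.12% of 35195 probe sets), with differences from -0.29 (Opalin, 95% interval -0.85 to 0.26) to 0.26 (Mal, 95% interval -0.22 to 0.74) and a median of 0.01. Ugt8a differed by -0.02 (95% interval -0.47 to 0.43) and Fa2h by 0.09 (95% interval -0.32 to 0.51). The estimates with CM-414 (-0.72 and -0.59) lie outside these intervals. The intervals with CM-414 reach -0.35 and -0.26, which lie inside them, and came from another fit. For Opalin the estimate with CM-414 (-0.82) lies inside, since the interval with CM-695 reaches -0.85. With SAHA and tadalafil against vehicle 0 of 9 were called (1.12% of 35199 probe sets), and the median was 0.05. Ugt8a differed by -0.25 (95% interval -0.62 to 0.11), Fa2h by -0.13 (95% interval -0.46 to 0.20) and Opalin by 0.20 (95% interval -0.36 to 0.77). Without the 3 high-scoring arrays, Ugt8a (-0.29, unadjusted p = 0.0306) and Fa2h (-0.29, unadjusted p = 0.0379) stayed above the threshold.

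Set directly against each other, CM-695 and CM-414 differed in the galactolipid enzymes. CM-695 was higher by 0.69 for Ugt8a (standard error 0.16, 95% interval 0.33 to 1.06, unadjusted p = 0.00139 and adjusted p = 0.687 from limma) and by 0.68 for Fa2h (standard error 0.15, 95% interval 0.35 to 1.01, unadjusted p = 0.00081 and adjusted p = 0.636). These 2 of 9 genes compare with 0.41% of 35326 probe sets called higher and 1.11% in either direction. The groups did not overlap for Ugt8a, Fa2h and Cnp, as for 6.45% of all probe sets. Opalin was not called (0.53, 95% interval -0.04 to 1.09), and the remaining genes lay between -0.07 (Mobp) and 0.23 (Mag). Without the 3 high-scoring arrays, which include the lowest CM-695 array of both genes and no CM-414 array, Ugt8a differed by 0.88 and Fa2h by 0.82.

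Against SAHA and tadalafil, 7 of the 9 genes had a lower mean with CM-414, Opalin by the most, and Mobp (0.13) and Mal (0.04) had a higher one. The Opalin difference was -1.03 (standard error 0.26, 95% interval -1.59 to -0.46, unadjusted p = 0.00209 and adjusted p = 0.766 from limma), 49.1% of the level with SAHA and tadalafil. It lost its call without CM-414 replicate 1 (-0.93), CM-414 replicate 3 (-0.91) or SAHA and tadalafil replicate 2 (-0.84), with unadjusted p from 0.0101 to 0.0112. This 1 of 9 compares with 0.49% of 35309 probe sets called lower and 1.18% in either direction. Ugt8a (-0.46, 95% interval -0.82 to -0.10, unadjusted p = 0.0170) and Fa2h (-0.45, 95% interval -0.78 to -0.12, unadjusted p = 0.0114) were not called, although like Opalin their groups did not overlap, with CM-414 lower, as for 5.7% of all probe sets. Without the 3 high-scoring arrays, which include the lowest Ugt8a array of SAHA and tadalafil and no CM-414 array, the differences were -0.54 and -0.45.
Between CM-695 and SAHA and tadalafil, 0 of 9 were called (1.74% of 35184 probe sets), with values from -0.50 (Opalin, 95% interval -1.06 to 0.07) to 0.23 (Ugt8a, 95% interval -0.13 to 0.59). All these comparisons share arrays, so their values stand side by side and do not add up as separate evidence.

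The galactolipid enzymes and the pair Mobp and Mal took different courses across the arrays. After each gene was centred on its mean over the 12 arrays, the mean of Ugt8a and Fa2h less the mean of Mobp and Mal lay between -0.64 and -0.35 with CM-414. It lay between 0.23 and 0.43 with vehicle, between 0.01 and 0.43 with CM-695, and between -0.02 and 0.05 with SAHA and tadalafil. The CM-414 arrays were below all others, and those of SAHA and tadalafil were below those of vehicle. The pair was chosen after the values had been seen, and this difference was not tested.

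**Figure D3:**
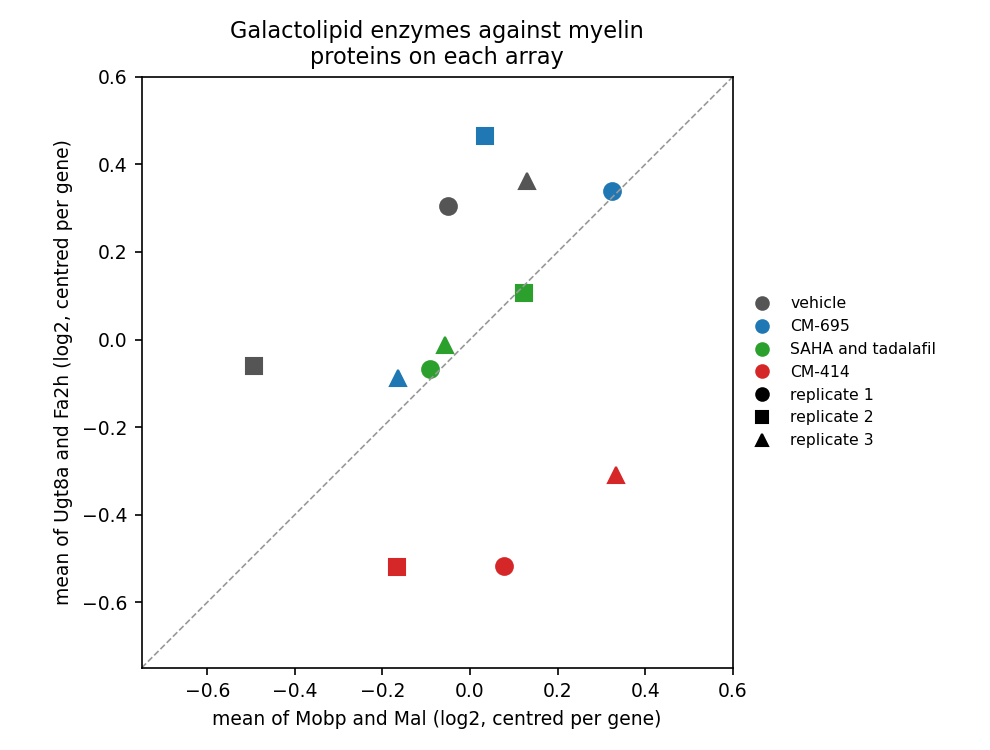
Mean of Ugt8a and Fa2h (y axis) against the mean of Mobp and Mal (x axis) on each array, in log2 units with each gene centred on its mean over 12 arrays; colours are groups, shapes replicate numbers, and the dashed line marks equal values. The 3 CM-414 arrays lie 0.35 to 0.64 below the line, and vehicle arrays 0.23 to 0.43 above it.

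Within groups, the 9 genes rose and fell together. Over the 36 pairs of genes, the correlation across the 12 arrays ran from -0.14 (Mobp with Opalin) to 0.95 (Ugt8a with Fa2h), with a median of 0.68. After the group means were taken away, all 36 were positive, from 0.19 to 0.98 with a median of 0.80. Set against the mean of the other 8 across the 12 arrays, with group means left in, Mag (0.93), Cnp (0.92) and Mog (0.91) followed most closely. Mobp (0.33), Mal (0.49) and Opalin (0.60) followed least. With group means taken away, Opalin (0.55) and Mobp (0.74) were lowest, and Mal was at 0.88. The mean of the 9 genes was 9.14 ± 0.14 with CM-414, 9.45 ± 0.24 with CM-695, 9.44 ± 0.16 with SAHA and tadalafil, and 9.43 ± 0.26 with vehicle, where vehicle replicate 2 (9.15) and CM-695 replicate 3 (9.17) fell within the range of the CM-414 arrays (9.04 to 9.30). These correlations are over arrays of 4 groups and include whatever the arrays share.

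The genes most like the 9 were looked for among 19940 other genes, by the correlation of each with the mean of the members over the 12 arrays. Gpr37, a receptor of oligodendrocytes, was highest (r = 0.97, Spearman's rho 0.93, and 0.98 after group means were removed), followed by Asah2 (0.95), a neutral ceramidase, Gatm (0.93), of creatine synthesis, Ndrg1 (0.92), and the uridine-cytidine kinase gene Uck1 (0.91). The most opposed were Shoc2 (-0.92), a scaffold of RAS signalling, the vesicular nucleotide transporter Slc17a9 (-0.86), and 1700037H04Rik (-0.84). Gpr37, Gatm and Ndrg1 are also on the lists of oligodendrocyte genes used below. In the absence of the 2 arrays farthest from the median of the member mean, r for these 8 genes kept its sign, at 0.96 for Gpr37 and -0.90 for Shoc2.

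Other genes of the oligodendrocyte lineage were described from 9 lists with 144 genes, of which 130 had a probe set of their own. None of the 9 members is among them. The lists were chosen with earlier results of these data known, so the shares below are a description and not independent evidence. With CM-414 against vehicle, 10 of the 130 were called lower and 2 higher (9.23%, beside the 2.45% of all probe sets), and the median was -0.08. With CM-695 against vehicle 1 was called (0.769%, beside 1.12% of all probe sets), and with SAHA and tadalafil 3 (2.31%, beside 1.12%). With CM-695 against CM-414, 8 were called higher and 1 lower (6.92%, beside 1.11%).

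Among the transcription factors, Olig1, which drives oligodendrocyte maturation, was lower with CM-414. Olig1 lay at 8.47, 8.55 and 8.58 with CM-414 and at 9.10, 8.92 and 9.31 with vehicle, a difference of -0.58 (standard error 0.10, unadjusted p = 0.00018 and adjusted p = 0.205 from limma). The CM-414 arrays of Olig1 were below the other 9, which reached down to 8.86, and the call held under all 14 alternatives. Sox10 was lower by a similar amount (-0.45, unadjusted p = 0.00896), but this call failed under 8 of the 14 alternatives, among them leaving out CM-414 replicate 1 or 2 or vehicle replicate 1 or 3 (unadjusted p from 0.0186 to 0.0422). Myrf, the factor that switches on myelin genes, differed by -0.08 (standard error 0.10). Of the 14 transcription factors tested, 2 were called, and the median was -0.11.
Set against CM-414, CM-695 was higher for Olig1 (0.44, unadjusted p = 0.00149), a call that held under all 14 alternatives. Olig2 was higher with CM-695 than in every other group. It lay at 9.03, 8.96 and 9.11 with CM-695, above all other arrays, the highest of which was at 8.73. With CM-695, Olig2 was called higher than vehicle (0.59, unadjusted p = 0.00519) and than CM-414 (0.70, unadjusted p = 0.00127). The difference between CM-695 and SAHA and tadalafil was not called. The call against vehicle was lost without any 1 of the CM-695 replicates 1, 2 and 3 (unadjusted p from 0.0119 to 0.0190).

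For precursors, C1ql1, a secreted protein of oligodendrocyte precursors, was lower with CM-414 (6.80, 6.79 and 6.94, against 7.26, 7.32 and 7.32 with vehicle). The difference was -0.46 (standard error 0.10, unadjusted p = 0.000546 from limma) and held under all 14 alternatives, and C1ql1 was also higher with CM-695 than with CM-414 (0.45, unadjusted p = 0.000664). It was the 1 of 14 precursor genes called, with a median of -0.05. Of 13 genes of newly formed oligodendrocytes, Enpp6, a choline phosphodiesterase (-0.65, unadjusted p = 0.00664), and Chn2 (-0.43, unadjusted p = 0.00415) were called lower with CM-414, with a list median of -0.08. Enpp6 was at 6.52 to 6.56 on the CM-414 arrays and 6.87 to 7.42 on the vehicle arrays, but CM-695 replicate 3 was lower still (6.13). Its call was lost without any 1 of CM-414 replicates 1, 2 and 3 or vehicle replicates 1 and 3 (unadjusted p from 0.0168 to 0.0306), and that of Chn2 without CM-414 replicate 3 or vehicle replicate 1 or 3 (from 0.0131 to 0.0214).

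Of 19 other proteins of the myelin membrane and its junctions, Cmtm5 (-0.37, unadjusted p = 0.00263) and Ninj2 (-0.34, unadjusted p = 0.00529) were called lower with CM-414, and 13 had negative values (median -0.19). Ninj2 had the same size of difference with SAHA and tadalafil (-0.35, unadjusted p = 0.00506). Both were lost on leaving out single arrays, Cmtm5 without CM-414 replicate 1 or 2 or vehicle replicate 3 (unadjusted p from 0.0110 to 0.0139). Ninj2 lost its call with CM-414 without any 1 of CM-414 replicates 1, 2 and 3 or vehicle replicates 1 and 3 (unadjusted p from 0.0115 to 0.0276). Its call with SAHA and tadalafil was lost without replicate 2 or 3 of that treatment or vehicle replicate 1 or 3 (from 0.0162 to 0.0264). In contrast to Ugt8a and Fa2h, none of 15 other genes of sphingolipid and plasmalogen synthesis was called with CM-414, and their median was 0.05. Gal3st1, which sulphates galactosylceramide directly after Ugt8a and is named here for that step, differed by -0.12 (standard error 0.14), and the ceramide synthase Cers2 by -0.04 (standard error 0.14). None of 17 genes of the cytoskeleton and mRNA transport (median -0.03) or of 12 inhibitors of differentiation (median 0.03) was called.

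Of 17 other mature oligodendrocyte genes, 14 had negative values with CM-414 (median -0.20), 3 were called lower and 1 higher. Gamt, the second enzyme of creatine synthesis, lay at 7.39, 7.38 and 7.58 with CM-414 and at 7.91, 7.78 and 8.12 with vehicle (-0.48, unadjusted p = 0.000914 from limma). The small heat shock protein Cryab lay at 9.17, 9.35 and 9.32 against 9.96, 9.53 and 10.01 (-0.55, unadjusted p = 0.00298). For both, all CM-414 arrays were below all arrays of the other groups. The Gamt call held with each single array left out, and that of Cryab was lost without CM-414 replicate 1, vehicle replicate 1 or vehicle replicate 3 (unadjusted p from 0.0140 to 0.0152). Ppp1r14a (-0.59, unadjusted p = 0.00926) and the lipocalin Apod (0.87, unadjusted p = 0.00993), named after their values were seen, were the remaining calls. Ppp1r14a was called under 7 of the 14 alternatives and Apod under 5. Among the losses, Ppp1r14a lost its call without CM-414 replicate 1 or 2 or vehicle replicate 1 or 3 (unadjusted p from 0.0295 to 0.0465). Apod lost its call without CM-414 replicate 1 or 3 or any 1 of the vehicle replicates 1, 2 and 3 (from 0.0123 to 0.0495). With CM-695 against CM-414, Cryab (0.60, unadjusted p = 0.00164), the carbonic anhydrase Car2 (0.40, unadjusted p = 0.00318) and the protease Adamts4 (0.46, unadjusted p = 0.00681) were called higher. Cryab kept this call with every single array left out, while Car2 lost it without CM-695 replicate 1 or 2 or CM-414 replicate 1 (unadjusted p from 0.0130 to 0.0167), and Adamts4 without CM-695 replicate 1 or 2 or CM-414 replicate 1 or 2 (from 0.0159 to 0.0348).

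The gene with the largest difference on these lists went the other way. Sgk1, a kinase induced by glucocorticoids and 1 of 9 genes described in oligodendrocytes near amyloid plaques, lay at 9.42, 9.60 and 9.55 with CM-414 and at 8.78, 8.17 and 8.57 with vehicle. It was higher by 1.02 (standard error 0.14, unadjusted p = 1.4e-05 and adjusted p = 0.167 from limma), and by 0.53 with SAHA and tadalafil (unadjusted p = 0.00263). The first of these calls held under all 14 alternatives and the second was lost without SAHA and tadalafil replicate 2 (unadjusted p = 0.0119) or with the fit on the 6 arrays of its groups (unadjusted p = 0.0134). With CM-695, Sgk1 differed from vehicle by 0.11 (standard error 0.17). None of the other 8 genes of this list was called with CM-414 against vehicle, and its median was -0.14.
Klk6 was called lower with SAHA and tadalafil against vehicle (-0.35, unadjusted p = 0.00545), and lost this without replicate 1 or 3 of that treatment or vehicle replicate 1 (unadjusted p from 0.0200 to 0.0282). Il33 was lower with CM-414 than with SAHA and tadalafil (-0.55, unadjusted p = 0.000759) and held under all 14 alternatives. Gpr17, a receptor of committed precursors that holds back their maturation, was higher with CM-695 than with CM-414 (0.38, unadjusted p = 0.00209) and than with SAHA and tadalafil (0.35, unadjusted p = 0.00343). Its first call was lost without CM-695 replicate 2 (unadjusted p = 0.0112) or CM-414 replicate 3 (unadjusted p = 0.01004), and its second without CM-695 replicate 2 (unadjusted p = 0.0173) or SAHA and tadalafil replicate 1 (unadjusted p = 0.0149).

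**Figure D4:**
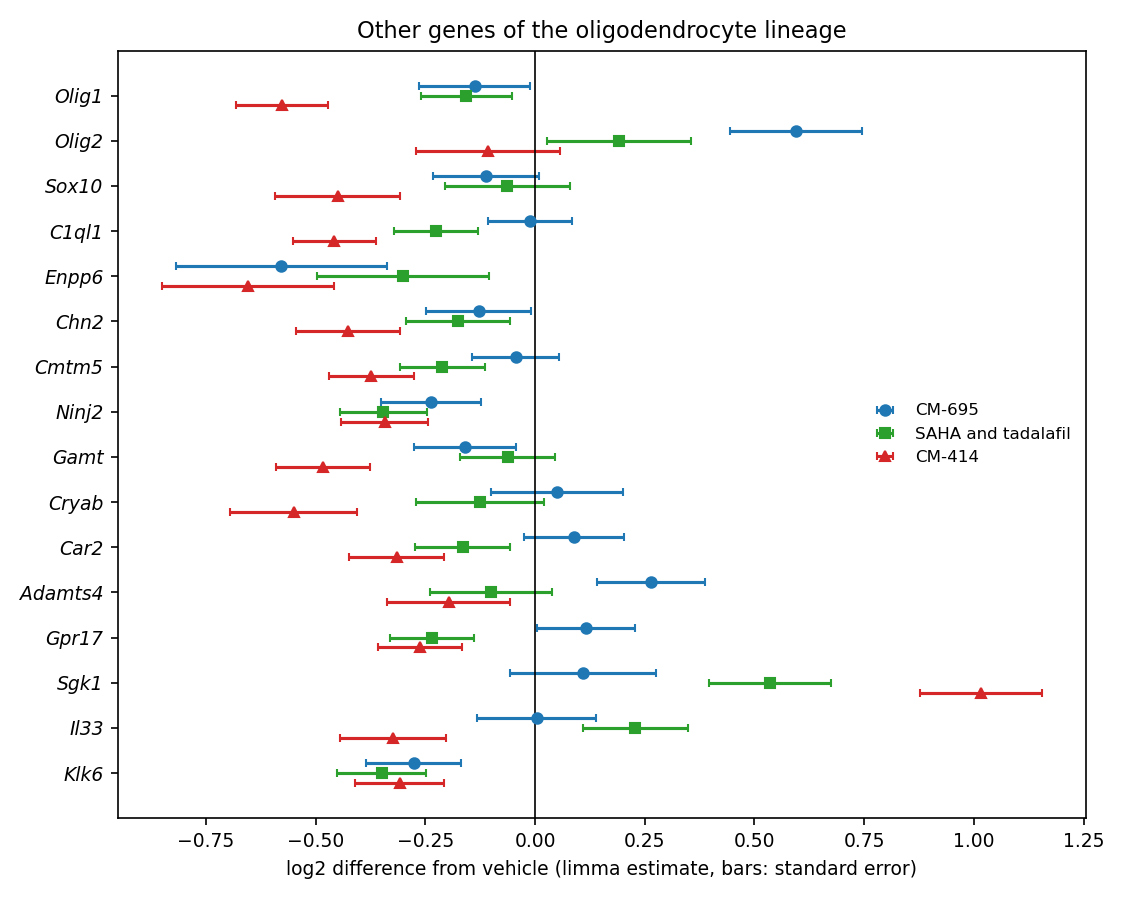
Log2 difference from vehicle (x axis) of 16 other genes of the oligodendrocyte lineage (y axis) with each treatment, as limma estimates with standard errors. Of 130 genes tested, these were chosen for an unadjusted limma p under 0.01 in any of the 6 comparisons. Apod and Ppp1r14a, also called, are not shown. Olig1 (-0.58), C1ql1 (-0.46) and Gamt (-0.48) are lower with CM-414, Olig2 is highest with CM-695 (0.59), and Sgk1 is highest with CM-414 (1.02).

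Markers of other cells and of neighbouring tissue are set beside these values, and whether they follow the myelin genes was not tested. With CM-414 against vehicle, all 13 microglia markers tested had negative values (median -0.21) and 0 were called, and with CM-695 12 of 13 did (median -0.22, C1qb called). The log2 of the summed microglia level ran from 11.77 to 11.86 with CM-414, 11.58 to 11.84 with CM-695, 11.81 to 11.99 with SAHA and tadalafil and 11.89 to 12.21 with vehicle. The thalamus and habenula lie next to the hippocampus and are rich in myelin, and 10 of their 14 markers were negative with CM-414 (median -0.24) and 0 called. With CM-695 against vehicle 11 of these 14 markers were negative (median -0.23, 0 called). With SAHA and tadalafil 9 were (median -0.10, 0 called). Their summed level ran from 11.26 to 11.34 with CM-414, 11.32 to 11.42 with CM-695, 11.27 to 12.19 with SAHA and tadalafil and 11.14 to 12.17 with vehicle. Prkcd, a defining gene of the thalamus, lay at 9.996 on vehicle replicate 1, at 9.13 on vehicle replicate 3 and at 9.82 on SAHA and tadalafil replicate 2, and between 7.97 and 8.55 on the other 9 arrays.
Of the other lists, with CM-414 against vehicle, 9 of 10 markers of the choroid plexus and ependyma were negative (median -0.19, 0 called), 8 of 12 of the hippocampal subfields (median -0.13, Lct called lower), 4 of 12 of neurons (median 0.03, 0 called), 4 of 11 of astrocytes (median 0.10, Gjb6 called higher), 7 of 10 of endothelium and pericytes (median -0.06, Slco1a4 called higher) and 1 of 2 of peripheral myelin (median 0.04). None of the 5 blood genes had a probe set of its own. No marker is at 0 on this scale, and the part of these lists in the results for myelin genes was not tested.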

How the data were processed

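Hippocampal RNA was hybridised to 12 arrays, 3 in each group, which the labels call biological replicas. The authors used RMA for background correction and normalisation, of unstated version, and deposited log2 intensities of 41345 probe sets. Arrays have no read depth, and 3 a group limit the precision. Groups and replicate numbers came from the labels. In the platform annotation, a probe set had exactly 1 symbol (23521), more than 1 (1820) or no entry (16004); the gene table of GRCm38.p6 changed 0 symbols.

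Tests were two-sided, by limma's moderated linear model (version 3.58.1, run in R 4.3.3), and p-values were adjusted by Benjamini and Hochberg over all probe sets tested. CM-695 against vehicle used the 6 arrays of these groups, as in the study, and the other comparisons all 12 arrays in 1 fit, so that groups share an estimate of the spread. The filter was a log2 value over 4 (a linear 16) on all arrays of both groups. The fits were also run on simulated data with noise drawn independently for each probe set. That run checks the code and not the calls given here. Plots came from Python 3.11.15 (matplotlib 3.10.9).

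The 9 members and the 18 lists (237 genes, 214 with a probe set) were chosen with earlier results of these data known. Named besides the members are up to 4 genes of each oligodendrocyte list with the smallest unadjusted p under 0.01, the 5 genes with the highest and the 3 with the lowest correlation with the members, and up to 2 defining genes of other lists beside a result. Myrf, Gal3st1, Cers2, Ppp1r14a, Apod, C1qb, Lct, Gjb6 and Slco1a4 fall outside this rule and were named after their values were seen. Alternatives were other filters, another set of arrays in the fit, centring, the replicate number as a block, array weights, an intensity trend, and leaving out arrays.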

Additional observations from a re-analysis of the deposited data

Results flagged for a closer look

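Differences between treatments passed the threshold in a direct test of one treatment against another. CM-695 exceeded CM-414 by 0.6949 for Ugt8a (unadjusted p = 0.00139, adjusted p = 0.687 from limma), with all 3 CM-695 arrays above all 3 CM-414 arrays. It exceeded CM-414 by 0.6798 for Fa2h (unadjusted p = 0.00081, adjusted p = 0.636 from limma), again with no overlap. CM-414 differed from SAHA and tadalafil by -1.026 for Opalin (unadjusted p = 0.00209, adjusted p = 0.766 from limma), lower on 3 of 3 arrays. With CM-695 against CM-414, 6.45% of all probe sets had groups without overlap and CM-695 higher. With CM-414 against SAHA and tadalafil, 5.7% had groups without overlap and CM-414 lower. The doses behind these comparisons may differ, and none of the 3 differences passed adjustment over all probe sets.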

How the results depend on the processing

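Each of the 54 member differences was computed under 14 alternatives. With CM-414 against vehicle every member kept its sign, and no called difference changed sign in any comparison. Counts of members called moved by over 1.5 times in 3 comparisons. With CM-414 against vehicle the count lay between 1 and 3 with single replicates left out. With CM-695 against CM-414, where the main count was 2, it was 1 with the replicate block and 4 with array weights (Cnp and Opalin added). With CM-414 against SAHA and tadalafil, where it was 1, it was 3 with the fit on the 6 arrays of these groups, 3 with array weights, 2 with the intensity trend and 3 without the 3 high-scoring arrays (Ugt8a or Fa2h added), and between 0 and 1 with single replicates left out. The medians moved by less than the spread between arrays (0.2071), but with single replicates left out they ran from -0.33 to -0.16 for CM-414 against vehicle, from 0.14 to 0.43 for CM-695 against CM-414 and from -0.40 to -0.17 for CM-414 against SAHA and tadalafil.

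Same-numbered arrays did not deviate together (correlations of deviations from -0.35 to 0.16, 4 of 18 over 0.1), so the numbers do not pair arrays. With the replicate block, 2 members were called with CM-414 against vehicle, Ugt8a (-0.79, unadjusted p = 0.0093) and Opalin (-1.11, unadjusted p = 0.00799), and Fa2h was not (-0.53, unadjusted p = 0.0353). In CM-695 against CM-414, Ugt8a was not called with it (0.62, unadjusted p = 0.0281). Of the lineage genes named with CM-414 against vehicle, the block ended the calls of Sox10, Enpp6, Chn2, Cmtm5, Ninj2, Gamt, Cryab, Ppp1r14a and Apod (unadjusted p from 0.0156 to 0.147) and not those of Olig1, C1ql1 and Sgk1. It also ended those of Cryab, Car2 and Gpr17 for CM-695 against CM-414 (from 0.0121 to 0.0317), Gpr17 for CM-695 against SAHA and tadalafil (0.0243), and Ninj2 and Klk6 for SAHA and tadalafil against vehicle (0.0239 and 0.0188). The fit on the 6 arrays of the groups compared ended those of Sox10, Ninj2 and Ppp1r14a for CM-414 against vehicle (from 0.0122 to 0.0240), Ninj2 and Klk6 for SAHA and tadalafil against vehicle (0.0264 and 0.0228), and Adamts4 for CM-695 against CM-414 (0.0146).

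Of the 54 differences, 22 changed sign under at least 1 alternative, none of them called, with main values from -0.11 to 0.20. With the replicate block, CM-695 against vehicle gave 0.1282 for Mbp and -0.026 for Mog, SAHA and tadalafil against vehicle -0.084 for Opalin, CM-695 against CM-414 0.1818 for Mobp, and CM-414 against SAHA and tadalafil 0.020 for Mbp. With arrays centred on their median, Mbp was 0.0131 for CM-695 against vehicle. With array weights, Ugt8a was 0.018 in that comparison, and Mag 0.0861 for CM-695 against SAHA and tadalafil. Without the 3 high-scoring arrays, they were 0.0541 and 0.1054, and Mobp was -0.0595 for SAHA and tadalafil against vehicle. The other sign changes came with 1 replicate left out, given as the range over these settings. For CM-414 against SAHA and tadalafil these were Mal from -0.067 to 0.16, Mbp from -0.16 to 0.019 and Mobp from -0.0063 to 0.26. For CM-695 against CM-414 these were Mal from -0.10 to 0.21 and Mobp from -0.20 to 0.066. For CM-695 against SAHA and tadalafil these were Cnp from -0.043 to 0.17, Mag from -0.14 to 0.16, Mal from -0.057 to 0.25, Mobp from -0.059 to 0.12 and Mog from -0.21 to 0.055. For CM-695 against vehicle these were Fa2h from -0.053 to 0.23, Mag from -0.23 to 0.096, Mbp from -0.14 to 0.10, Mobp from -0.041 to 0.29, Mog from -0.13 to 0.18 and Ugt8a from -0.17 to 0.17. For SAHA and tadalafil against vehicle these were Cnp from -0.065 to 0.15, Mag from -0.21 to 0.034, Mbp from -0.23 to 0.016, Mobp from -0.10 to 0.23 and Mog from -0.019 to 0.21. The cause was not tested. Averaging the probe sets of a gene was not run, since each member has 1. The number of arrays limits all of these values.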
